A study of Mus musculus with 2 samples.

Results

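C1q droplets were barcodes in a sort of splenic donor T cells that carried transcripts of complement C1q, which is made by tissue macrophages and not by T cells. They were chosen by measured values. Among barcodes with 500 to 7500 detected genes and at most 15% of their UMIs from mitochondrial genes, those with at least 5 UMIs of C1qa, C1qb and C1qc in sum were taken. A UMI (unique molecular identifier) stands for 1 captured transcript. Of 14973 barcodes within these limits, 185 met the rule, 115 of 7179 at day +7 (1.60%, 95% Clopper-Pearson interval 1.32% to 1.92%) and 70 of 7794 at day +14 (0.898%, 0.701% to 1.13%). The members were then described in 2 classes by their summed UMIs of the T cell receptor complex, which the rule takes as the CD3 chains Cd3d, Cd3e and Cd3g and the receptor constant regions Trbc1, Trbc2 and Trac. T-low droplets held at most 5 such UMIs (31 at day +7 and 15 at day +14) and T-bearing droplets held more (84 and 55). Barcodes with more than 5 T receptor UMIs and no C1q UMI, 6499 at day +7 and 7074 at day +14, served as the C1q-free T cells of each library.

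Both libraries came from the same transplant model of acute graft-versus-host disease. T cell-depleted bone marrow and purified splenic T cells of wild-type C57BL/6 mice (H2Kb) were given to lethally irradiated BALB/c recipients (H2Kd), and recipient spleens were then sorted for CD45+, H2Kb+, H2Kd- and TCRβ+ donor T cells as input to droplet single-cell RNA sequencing. The library titles give day 7 and day 14 after transplantation, and the library names mark both as PBS. Both groups thus share the transplant, the irradiation and the PBS mark. The sort text of both labels names day +7, so the day +14 group rests on its title and on the study's methods. The sources differ on the dose of infused T cells and on whether these were naive, so neither is given here. Cell suspensions were pooled and each day is 1 library, so every difference between days compares 2 libraries, has no replicate check and carries no p-value. The gate asks for donor H2Kb and for TCRβ at the surface. Which strain the macrophage transcripts came from was not tested.

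C1q, built from the C1qa, C1qb and C1qc chains, starts the classical complement pathway and also tags dying cells for uptake. In the spleen, red pulp macrophages express it together with the adhesion molecule Vcam1, the haptoglobin-haemoglobin receptor Cd163, the heme oxygenase Hmox1 and the iron exporter Slc40a1, because they engulf aged red cells and recycle their iron. Spic is the transcription factor that sets this programme, and Csf1r, the receptor for the survival factor of macrophages, is shared by most of the lineage. Macrophages can also display antigen on MHC class II, which T cells of the mouse hardly express.

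In mm10 coordinates, the C1q genes lie side by side on the minus strand of chromosome 4, C1qb at 136880129 to 136886187, C1qc at 136889804 to 136893065 and C1qa at 136895917 to 136898803. Vcam1 lies on the minus strand of chromosome 3 at 116109949 to 116129688. The deposited values are UMIs counted per gene, so they do not tell transcript forms apart.

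The deposited libraries held 87124828 UMIs over 7355 barcodes at day +7 and 84233811 UMIs over 8043 barcodes at day +14. The limits on genes and mitochondrial share left out 176 and 249 barcodes. The sequences of 20 barcodes occurred in both libraries, and 1 of these was a T-bearing member at day +7. The doublet caller Scrublet marked 0 barcodes in either library at its automatic threshold, so its calls were not used and no droplet was removed as a doublet. All intervals below cover counting error only, since the replicate of a condition is the library and not the droplet.

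The members fell on either side of a gap in T cell receptor transcripts. T-low droplets held between 0 and 2 T receptor UMIs on both days, with 0 in 24 of 31 at day +7 and in 7 of 15 at day +14. T-bearing droplets held 13 at the lowest, 69 at the median and 580 at the highest at day +7, and 6, 96 and 410 at day +14. Between 3 and 12 T receptor UMIs there was no member at day +7 and 1 member, with 6, at day +14. The C1q-free T cells held 59 and 67 at the median, so the T-bearing droplets lay in the range of whole T cells and not between T-low droplets and T cells. By share, 73.0% of the members were T-bearing at day +7 (64.0% to 80.9%) and 78.6% at day +14 (67.1% to 87.5%).

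C1q UMIs, which chose the members, ran the other way. T-low droplets held 5, 29 and 114 C1q UMIs at day +7 (lowest, median and highest) and 5, 13 and 44 at day +14. T-bearing droplets held 5, 9 and 99 at day +7 and 5, 8 and 179 at day +14. The ranges overlapped, and the lower medians of the T-bearing droplets stood beside greater total depth. T-low droplets had 889, 3552 and 43034 UMIs at day +7 and 854, 1324 and 13808 at day +14. T-bearing droplets had 4539, 12689 and 99017 at day +7 and 1815, 13841 and 48692 at day +14, against medians of 9069 and 7918 in C1q-free T cells.

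**Figure D1:**
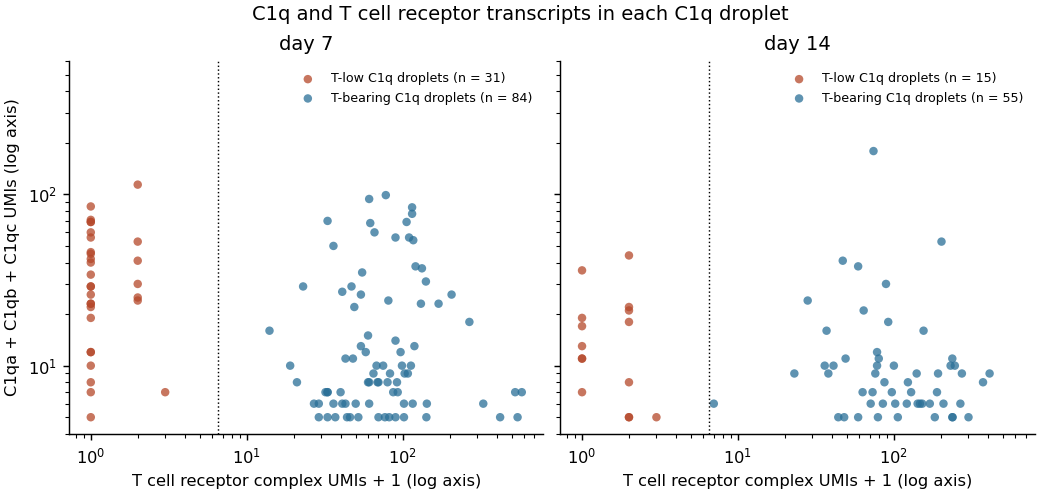
Each point is 1 C1q droplet, with its T cell receptor complex UMIs plus 1 on the horizontal log axis and its summed C1qa, C1qb and C1qc UMIs on the vertical log axis, at day 7 (left) and day 14 (right). The dotted line is the limit of 5 T receptor UMIs. T-low droplets (red) sit at 0 to 2 T receptor UMIs and T-bearing droplets (blue) at 13 to 580 at day 7 and 6 to 410 at day 14, with the space between nearly empty.

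Most T-low droplets lacked Malat1, a nuclear long non-coding RNA that almost every intact cell yields in this assay. At day +7, 23 of 31 T-low droplets held 0 Malat1 UMIs (74.2%, 55.4% to 88.1%), and at day +14 all 15 did (100%, 78.2% to 100%). Among T-bearing droplets the same was true of 1 of 84 at day +7 (1.19%) and of 0 of 55 at day +14, which allows up to 6.49%. It was true of 0.831% and 0.269% of the C1q-free T cells. The mitochondrial share had medians of 4.04% and 0.831% in T-low droplets at day +7 and day +14, 2.38% and 2.46% in T-bearing droplets, and 2.40% on both days in T cells. Why the T-low droplets lacked a nuclear RNA was not tested.

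**Figure D2:**
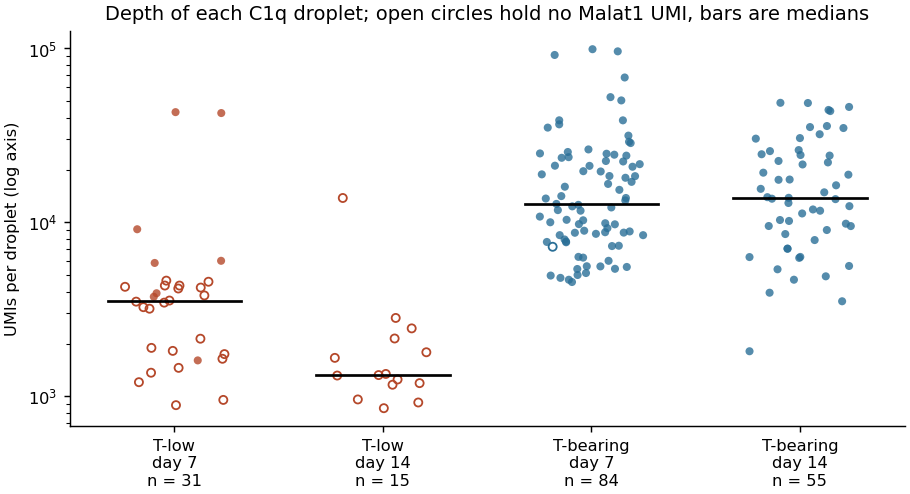
Each circle is 1 C1q droplet with its total UMIs on a log axis, by class and day, where open circles hold no Malat1 UMI and bars are medians. Open circles make up 23 of 31 and 15 of 15 T-low droplets and 1 of 84 and 0 of 55 T-bearing droplets.

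The 8 T-low droplets with Malat1 at day +7 were a mixed set. They held 1842 Malat1 UMIs together. The 2 deepest, of 43034 and 42518 UMIs, held 230 and 192 UMIs of erythroid genes, 133 and 90 of proliferation genes, and only 7 and 22 of C1q. These 2 droplets lie within a T-low sum of 182154 UMIs at day +7, which lowers every macrophage level relative to all UMIs in that group. In the 23 T-low droplets without Malat1, C1q made up 12010 of each 1000000 UMIs (CPM) and the red pulp list 12929 CPM, against 2928 and 3662 CPM in the 8 with Malat1. At day +14, 1 T-low droplet of 13808 UMIs likewise held 106 erythroid and 13 C1q UMIs. Counting all members, 3 and 2 T-low and 4 and 3 T-bearing droplets held at least 10 erythroid UMIs, with a highest value of 679 in a T-bearing droplet at day +7.

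Apart from C1q, the T-low droplets carried the red pulp programme. Gene levels here are UMIs of a gene summed over the droplets of a class per 1000000 UMIs of that class (CPM), log2 ratios were taken after adding 1 CPM, and a gene was tested where its mean over both classes was at least 10 CPM. Against C1q-free T cells a gene was called at a 4-fold difference, a rule of size and not a statistical test. By this rule 12.1% of 7336 tested genes were called higher and 7.1% lower in T-low droplets at day +7, and 15.2% and 23.9% of 6814 at day +14. In the day +14 T-low droplets 1 UMI is worth 28.6 CPM, so many of these calls rest on 0 or 1 UMI. Where the counting interval also had to leave out 0, 824 genes were called at day +14 in place of 2665. The median log2 ratio over all tested genes was 0.18 at day +7 and 0.09 at day +14. A gene nearly absent from T cells passes the 10 CPM limit only through the C1q droplets and is then called by necessity, so macrophage genes are given by their levels, and counts of them called are no support.

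The 10 red pulp genes had a summed level of 7038 CPM against 15.9 CPM in T cells at day +7, from 1282 UMIs, and of 4027 against 16.1 CPM at day +14, from 141 UMIs. All 10 passed the limit at day +7 and 9 at day +14. Vcam1 stood at 1817 CPM in T-low droplets and 0.40 CPM in T cells at day +7 (log2 ratio 10.34), and at 800 and 0.61 CPM at day +14 (8.96). By droplet, Vcam1 was found in 29 of 31 T-low droplets at day +7, with a median of 10 and a highest value of 25 UMIs, and in 9 of 15 at day +14, with a median of 1 and a highest value of 7. It was found in 0.431% and 0.580% of the C1q-free T cells. Csf1r had 74 UMIs at day +7 and 10 at day +14 in T-low droplets, which is 406 and 286 CPM against 0.12 and 0.26 CPM in T cells. By droplet, Csf1r was found in 22 of 31 T-low droplets at day +7 and in 8 of 15 at day +14. Of the 3 markers given for these droplets, Vcam1 and Csf1r were thus present in both libraries, while C1qa was part of the rule.

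Slc40a1, the only known cellular iron exporter, stood at 1098 CPM in T-low droplets against 0.69 CPM at day +7 and at 428 against 0.69 CPM at day +14. Fcna, a ficolin of the lectin complement pathway, stood at 1060 against 0.61 CPM and at 200 against 0.08 CPM. Spic stood at 450 against 0.64 CPM and at 171 against 0.62 CPM, the latter from 6 UMIs. Hmox1 stood at 999 against 9.72 CPM and at 1571 against 9.73 CPM. Cd163 had 37 UMIs at day +7 and 0 at day +14, where it was not tested. The 11 genes of iron and heme handling summed to 19396 against 1750 CPM at day +7 and to 30990 against 1509 CPM at day +14, where the transferrin receptor Tfrc had 0 UMIs and was called lower. Ferritin heavy chain Fth1 alone reached 8378 and 18137 CPM, against 1006 and 949 CPM in T cells.

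The machinery of uptake and digestion was also present. The 10 general macrophage genes summed to 3788 against 278 CPM at day +7 and to 6084 against 287 CPM at day +14. At day +7 the protease inhibitor Cst3 was tested and not called, at 730 CPM against 210 CPM, and Lyz2 had 1 UMI and was not tested. Adgre1, which encodes the F4/80 antigen, stood at 187 and 257 CPM against 0.07 and 0.12 CPM. Complement and Fc receptor genes summed to 4227 against 178 CPM and to 4313 against 28.8 CPM, and 9 and 10 of the 13 passed the limit. Among them are Fcer1g and Tyrobp, the adaptors through which activating receptors signal. Lysosomal genes, which T cells also express, were called higher in 10 and 9 of the 13 tested of 14, beside 12.1% and 15.2% of all tested genes. Cathepsin Ctsb stood at 3343 CPM against 110 CPM at day +7 and at 2028 against 187 CPM at day +14. Of the 11 genes for uptake of dying cells, 7 and 5 passed the limit, with 164 and 17 UMIs over the list, and the integrin Itgav was called lower at day +14 at 0 UMIs. Mertk, a receptor tyrosine kinase of that kind, had 33 and 2 UMIs. The 9 genes of lipid handling, of which 6 and 7 passed, summed to 2789 against 27.3 CPM and to 2456 against 35.8 CPM, and Apoe, the lipoprotein that carries cholesterol out of macrophages, stood at 1812 and 1914 CPM against 1.12 and 1.71 CPM.

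The 7 MHC class II genes stood at 3832 against 36.8 CPM in summed level at day +7 and at 16395 against 81.5 CPM at day +14, and all 7 passed the limit on both days. Chemokine genes were mixed, with 4 higher and 2 lower of 7 tested at day +7 and 5 higher and 2 lower of 8 at day +14. Such genes can pass the limit through 1 class alone, so these counts are a description only. Ccl24, an eosinophil attractant, was among the 8 highest ratios at day +7, at 1790 CPM against 1.13 CPM. Outside the lists, Wfdc17, which encodes a secreted protein, stood at 1021 and 857 CPM against 0.76 and 1.10 CPM.

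T cell genes were nearly missing from the same droplets. The T receptor genes, used to choose the class, were all called lower. Of the 12 other T lineage genes, 11 were called lower at day +7 and 12 at day +14, and their summed level was 98.8 CPM against 2679 CPM and 28.6 against 2925 CPM. T effector genes were called lower in 10 of 11 and 11 of 11. The effector gene not called at day +7 was Eomes, from 1 UMI, and the lineage gene was Cd4, from 5 UMIs. All T-low droplets together held only 18 and 20 effector UMIs. Over all tested genes 7.1% and 23.9% were called lower. T cell genes pass the 10 CPM limit through the T cells, and the classes were chosen by T receptor UMIs. The counts of T cell genes called are therefore a description and no support.

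Markers of most other cells were low or absent. Platelet and NK cell genes had 0 UMIs in T-low droplets on both days. Neutrophil genes had 5 and 3 UMIs, at 27.5 CPM against 512 CPM in T cells at day +7 and 85.7 against 497 CPM at day +14, and no T-low droplet held more than 5 UMIs of S100a8 and S100a9. B and plasma cell genes had 2 UMIs on each day. Of the dendritic genes, Xcr1 was at 0 on both days and Clec9a had 0 and 1 UMIs, while the integrin Itgax, which macrophages share, had 10 and 3. Zbtb46 of the same list had 2 UMIs on each day. At least 1 UMI of the dendritic list was found in 5 of 31 and 4 of 15 T-low droplets. The marginal zone genes Cd209a and Cd209b were at 0, though Marco had 25 and 3 UMIs and Siglec1 had 25 and 0. Among monocyte genes, Ly6c2 had 0 and 1 UMIs and Ccr2 had 0 on both days. Plac8, which T cells also express, had 83 UMIs at day +7 (456 against 312 CPM in T cells, log2 ratio 0.55, not called) and 0 at day +14, and 2 droplets held 53 and 28 of the 83. Erythroid genes stood at 2536 against 39.5 CPM in T cells at day +7, from 462 UMIs, and at 3599 against 33.5 CPM at day +14, from 126, most of them in the 3 droplets described above.

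**Figure D3:**
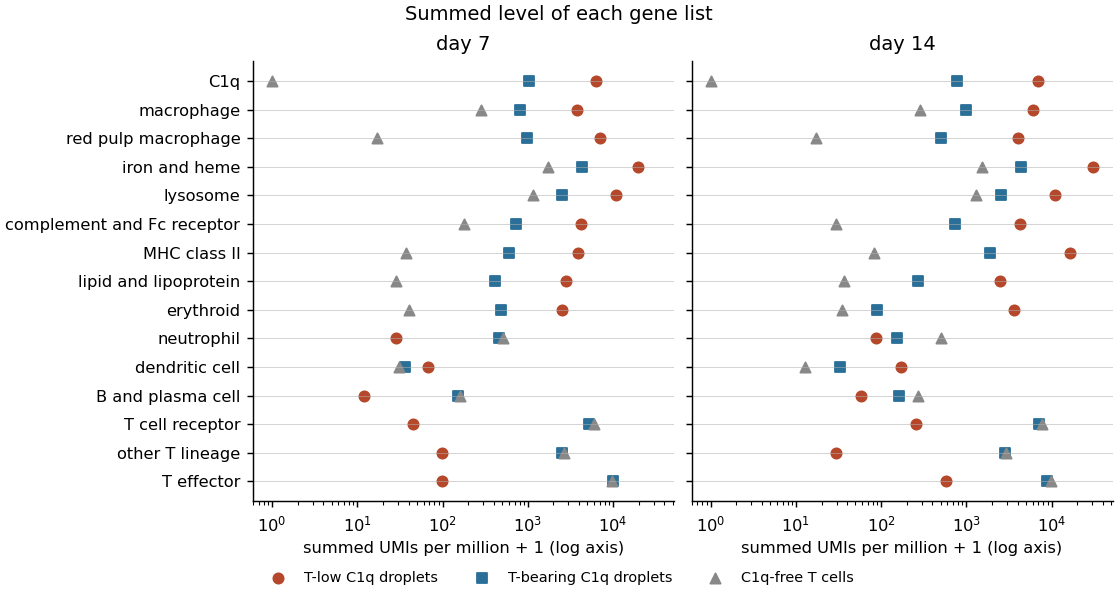
Summed UMIs per 1000000 plus 1, on a log axis, of each gene list in T-low droplets (red circles), T-bearing droplets (blue squares) and C1q-free T cells (grey triangles) at day 7 (left) and day 14 (right). For the macrophage lists the T-bearing droplets lie between the other classes, and for the T cell lists they lie on the T cells. C1q and T cell receptor genes defined the classes.

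T-bearing droplets held both programmes. Beside C1q-free T cells a gene was called at a 2-fold difference, and 2.39% of 6730 tested genes were called higher and 0.104% lower in T-bearing droplets at day +7, against 2.38% and 0.371% of 7271 at day +14. The red pulp genes summed to 970 against 15.9 CPM at day +7 and to 509 against 16.1 CPM at day +14, and 10 and 7 of the 10 passed the limit. Mrc1, Cd163 and Treml4, left out at day +14, had 14, 1 and 13 UMIs. The MHC class II genes summed to 600 against 36.8 CPM and to 1902 against 81.5 CPM, with 5 and 6 of the 7 past the limit. Complement and Fc receptor genes summed to 729 against 178 CPM and to 735 against 28.8 CPM, and lipid genes to 413 against 27.3 CPM and 272 against 35.8 CPM. Vcam1 was found in 61 of 84 T-bearing droplets at day +7 and in 29 of 55 at day +14, with medians of 2 and 1 UMIs and highest values of 23 and 12. The median log2 ratio over all tested genes was -0.01 and 0.06.

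Few T cell genes of these droplets were called against T cells without C1q. Of 12 other T lineage genes, 1 was called lower at day +7, the coreceptor Cd4, at 8.09 against 17.5 CPM (log2 ratio -1.02, counting interval -2.03 to -0.33), and 0 at day +14. None of the proliferation, glycolysis or pentose phosphate genes was called on either day. The 6 T receptor genes, which chose both classes, are a description only, at 5206 against 5954 CPM in sum at day +7 and 7061 against 7645 CPM at day +14. Cd8b1 stood at 620 against 607 CPM and at 485 against 484 CPM. Of 11 effector genes, 1 was called lower on each day. At day +7 it was the chemokine Ccl1, at 15.6 against 45.3 CPM (log2 ratio -1.48). At day +14 it was the granzyme Gzma, at 77.4 against 233 CPM (-1.58, -1.93 to -1.27), whereas at day +7 Gzma stood at 3866 against 3454 CPM. The neutrophil alarmin S100a8 was also called lower at day +14, at 60.3 against 185 CPM (-1.60).

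After each barcode was thinned to 4000 UMIs, 86.9% of T-bearing droplets had Cd8a or Cd8b1 and no Cd4 at day +7 (77.8% to 93.3%), against 82.6% of T cells. At day +14 the shares were 84.6% (71.9% to 93.1%) and 82.0%. Cd4 alone was seen in 1.19% and 3.85% of T-bearing droplets, against 5.07% and 6.52% of T cells. Cd4 and Cd8 together were seen in 0 of 84 at day +7 (up to 4.30%) against 0.720% of T cells, and in 7.69% (2.14% to 18.5%) against 2.75% at day +14. The interval of each of these thinned shares held the T cell value. With all UMIs the last pair was 11 of 55 (10.4% to 33.0%) and 6.29%, at unequal depths, with a median of 13841 UMIs in T-bearing droplets and 7918 in T cells.

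Beside T-low droplets, the macrophage genes of T-bearing droplets were lower together. At a 2-fold difference 15.5% of 7325 tested genes were called higher and 25.1% lower at day +7, and 32.1% and 25.9% of 6953 at day +14. The red pulp list summed to 970 against 7038 CPM at day +7 and to 509 against 4027 CPM at day +14, log2 ratios of -2.86 and -2.98, beside C1q at -2.58 and -3.15. The MHC class II list had log2 ratios of -2.67 and -3.11 in sum, and the median over all tested genes was -0.19 and 0.00. Per C1q UMI the classes stood closer. At day +7, 100 C1q UMIs came with 29.1 Vcam1 UMIs in T-low and 21.7 in T-bearing droplets, and with 61.4 and 57.6 MHC class II UMIs. At day +14 the values were 11.6 and 11.5 for Vcam1 and 237 and 244 for MHC class II. Whether a T-bearing droplet held a macrophage and a T cell, or a T cell with macrophage material, was not tested.

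Scrublet gave T-bearing droplets higher simulated-doublet scores than the other classes, with medians of 0.100 and 0.127 at day +7 and day +14, against 0.0565 and 0.0580 in T-low droplets and 0.0605 and 0.0580 in T cells. Even so, the highest T-bearing scores of 0.223 and 0.272 lay under the automatic thresholds of 0.596 and 0.599. Among the highest-scoring barcodes of each library, 433 at day +7 and 518 at day +14, were 5 of 84 T-bearing droplets (5.95%) and 9 of 55 (16.4%, 7.77% to 28.8%), against 5.55% and 6.21% of T cells and no T-low droplet.

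The limit of 5 C1q UMIs cut through a slope. At day +7, 257 barcodes had 1 C1q UMI, 71 had 2, 31 had 3 and 32 had 4, while 15 members had 5 and 11 had 6. At day +14 the counts were 337, 85, 35 and 29 below the limit and 12 and 11 above it. The summed red pulp level at day +7 was 16.5 CPM in barcodes with 0 C1q UMIs, 45.1 CPM with 1, 198 CPM with 4, 170 CPM with 5, 254 CPM with 6 and 3700 CPM with 20 or more. At day +14 it was 16.95, 42.0, 198, 258, 188 and 2150 CPM in the same order. Barcodes just outside the limit therefore did not stand apart from the members just inside it. Most of the near members were T-bearing, with 25 of 26 at day +7 and 20 of 23 at day +14 among those with 5 or 6 C1q UMIs.

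Droplets of other kinds gave a measure of free C1q RNA. At least 1 C1q UMI was found in 6.69% of barcodes with more than 5 T receptor UMIs at day +7 and in 7.02% at day +14, at median depths of 9222 and 8253 UMIs. In T-low barcodes rich in S100a8 and S100a9 (at least 50 UMIs), which are neutrophil-lineage cells and should lack C1q, it was found in 1 of 34 (2.94%, 0.07% to 15.3%) and 1 of 59 (1.69%, 0.04% to 9.09%), at median depths of 11920 and 5803 UMIs. None of those had 5 or more, which allows up to 10.3% and 6.06%. In T-low barcodes with at least 50 erythroid UMIs it was found in 7 of 75 (9.33%, 3.84% to 18.3%) and 2 of 15 (13.3%, 1.66% to 40.5%), at median depths of 36729 and 3579 UMIs, and 2 and 1 of these had 5 or more and are members. At 4000 UMIs the shares with 1 or more were 3.53% and 3.67% in the T cell barcodes, 0 in the neutrophil-lineage barcodes, and 2 of 71 and 1 of 7 in the erythroid barcodes. A part of the single C1q UMIs in T cell barcodes cannot be told apart from free RNA at these numbers.

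The members held 2.06% of the UMIs of the kept barcodes at day +7 and 1.23% at day +14, and larger shares of several macrophage transcripts. Of all C1qa UMIs, which the rule used, 82.5% and 58.7% lay in members. For Vcam1 the shares were 88.4% and 49.6%, for Csf1r 82.4% and 53.8%, and for the mannose receptor Mrc1 89.5% and 48.8%. Slc40a1 lay in members for 69.8% and 39.1%. MHC class II H2-Aa lay mostly elsewhere, with 20.2% and 26.8% in members. The lower day +14 shares stood beside fewer C1q UMIs per member.

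Between the days, MHC class II and red pulp genes of the members differed in opposite directions. A gene was called here at a 2-fold difference whose counting interval left out 0. In T-low droplets 2.8% of 6864 tested genes were called higher and 1.46% lower at day +14, and in T-bearing droplets 7.51% and 2.13% of 7146. The median log2 ratio of all tested genes was 0.06 in T-low and 0.23 in T-bearing droplets. Scaling by the median ratio of genes in place of total UMIs moved every log2 ratio by 0.23 in T-low and 0.16 in T-bearing droplets, and in the T-bearing against T-low comparison at day +14 by 0.21. With that scaling the calls between days were 143 higher and 149 lower in T-low droplets, in place of 192 and 100, and 357 and 227 in T-bearing droplets, in place of 537 and 152. Counted per C1q UMI they were 155 and 122 in T-low and 1600 and 56 in T-bearing droplets. Both classes come from the same pair of libraries, so they are not independent of each other, and a library effect and the day cannot be told apart.

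MHC class II genes were called higher at day +14 in 5 of 7 in T-low droplets, with a median log2 ratio of 1.92, and in 5 of 6 tested in T-bearing droplets, with a median of 1.85. H2-Aa, an alpha chain of the class II molecule, had a median of 2 and a highest value of 9 UMIs in T-low droplets at day +7 and 4 and 20 at day +14. In CPM it stood at 401 and 3028 in T-low droplets (log2 ratio 2.91, 2.47 to 3.37) and at 70.9 and 355 in T-bearing droplets (2.31, 2.01 to 2.64). The partner chain H2-Ab1 had log2 ratios of 2.31 and 1.72, H2-Eb1 of 2.25 and 2.22, and the invariant chain Cd74 of 1.81 and 1.26. H2-DMb1, a chain of the molecule that loads peptide onto class II, had 1.63 and 1.99. Its partner H2-DMa was called in neither class, at 0.71 and 0.80, and Ciita, the activator of class II transcription, was not called from 4 and 3 UMIs in T-low droplets. C1q-free T cells went from 36.8 to 81.5 CPM in the summed list.

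In single droplets the shift was measured as MHC class II UMIs per C1q UMI. The C1q-free T cells' own class II level, 36.8 and 81.5 CPM, adds to this ratio in T-bearing droplets, and the rule's limit of 5 C1q UMIs bounds its denominator. T-low droplets held 0.17, 0.57 and 2.71 at day +7 (lowest, median and highest) and 0.71, 2.27 and 8.20 at day +14. All 15 day +14 droplets lay above the day +7 median and 5 above its highest value, so the groups overlapped. T-bearing droplets held 0, 0.55 and 2.57 at day +7 and 0, 1.78 and 9.33 at day +14, with 50 of 55 above the day +7 median and 14 above its highest value. The T-low median ratio of the list was 2.14 among droplets with fewer than 10 erythroid UMIs and 1.42 among those without Malat1. Without the droplet of most C1q UMIs in each library it was 1.996 in T-low and 1.69 in T-bearing droplets.

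**Figure D4:**
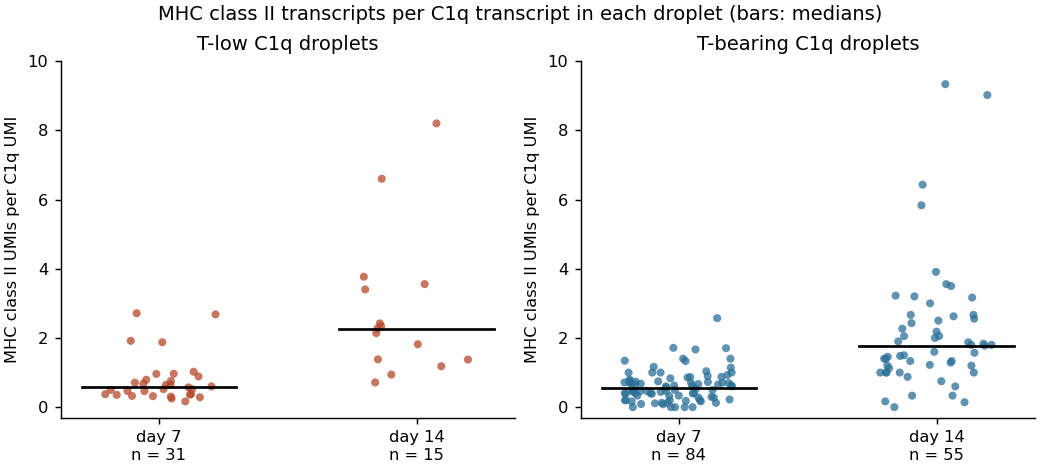
Each point is 1 C1q droplet, with its summed MHC class II UMIs divided by its C1q UMIs on a linear axis, for T-low (left) and T-bearing droplets (right) on both days. Bars are medians, which stand at 0.57 and 2.27 in T-low and 0.55 and 1.78 in T-bearing droplets, and the days overlap in both classes.

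Red pulp genes were called lower at day +14 in 7 of 10 in T-low droplets, with a median log2 ratio of -1.37, and in 5 of 10 in T-bearing droplets, with a median of -1.08. None was called higher in either class. Vcam1 had log2 ratios of -1.18 (-1.80 to -0.63) in T-low and -1.33 (-1.69 to -0.997) in T-bearing droplets. In single T-low droplets Vcam1 per C1q UMI was 0, 0.25 and 0.88 at day +7 and 0, 0.15 and 0.80 at day +14, with 5 of 15 day +14 droplets above the day +7 median, so the overlap was nearly complete. Fcna had ratios of -2.40 and -2.91, and Mrc1 of -1.70 and -2.20. Cd163 went from 37 to 0 UMIs in T-low droplets, which is at least 2.37-fold lower in CPM, and from 32 to 1 in T-bearing droplets. Slc40a1 was called in T-low droplets (-1.36, -2.22 to -0.60) and not in T-bearing droplets (-0.99, -1.40 to -0.62). Hmox1, by contrast, was higher at day +14 but called in neither, at 0.65 (0.19 to 1.10) in T-low and 0.35 in T-bearing droplets.

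For the red pulp list in T-low droplets, the median was -1.66 among droplets with fewer than 10 erythroid UMIs and -2.11 among those without Malat1. In T-bearing droplets it was -0.58 when counted per C1q UMI in place of CPM. Per 100 C1q UMIs the summed list went from 113 to 58.3 in T-low and from 93.1 to 65.4 in T-bearing droplets. C1q itself, which chose the droplets, stood at 6236 and 6912 CPM in T-low and at 1043 and 778 CPM in T-bearing droplets, and none of its genes was called. By droplet, its median share of UMIs was lower at day +14, at 1.18% and 0.838% in T-low and 0.0965% and 0.0630% in T-bearing droplets. The day +7 T-low droplets without Malat1 stood at 12010 CPM of C1q.

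Other macrophage genes were also lower at day +14 in both classes. Trf, which encodes the iron carrier transferrin, had log2 ratios of -2.55 and -1.74 in T-low and T-bearing droplets. Among chemokines, Ccl6 had ratios of -2.42 and -3.46 and Ccl24 of -1.58 and -2.48. Per 100 C1q UMIs, Ccl24 went from 28.7 to 8.68 and from 20.3 to 4.78. Lysosomal genes, by contrast, were called higher in 0 of 13 in both classes and lower in 1 and 0, with medians of 0.09 and 0.16, and the lower gene in T-low droplets was the cathepsin Ctsl (-2.09).

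Other genes were higher at day +14. In T-low droplets they included Fth1 (log2 ratio 1.11, 0.98 to 1.25) and Aif1 of the macrophage list (1.11, 0.55 to 1.65). These ratios are of summed CPM, which the deep erythroid-bearing droplets lower at day +7. By droplet, the days stood closer. The iron and heme list, which holds Fth1, had medians of 3.15% of UMIs at day +7 and 3.28% at day +14. The macrophage list had medians of 0.632% and 0.801%. Lyz2, the myeloid lysozyme, had 1 UMI in T-low droplets at day +7 and 29 at day +14, in 6 droplets with 14 in 1 of them, and in T-bearing droplets 37 UMIs in 10 droplets and 110 in 22 (log2 ratio 2.22). Cxcl9, a chemokine induced by interferon gamma, had 12 UMIs in 7 of 31 T-low droplets at day +7 and 43 in 10 of 15 at day +14 (4.20, 3.27 to 5.28). Among T-low droplets without Malat1 the Cxcl9 ratio was 2.88. In T-bearing droplets Cxcl9 had 79 UMIs in 23 of 84 and 97 in 30 of 55, and was not called (0.97, 0.55 to 1.44). The high-affinity Fc receptor Fcgr1 had ratios of 1.83 and 1.16, and Spi1, which encodes the myeloid factor PU.1, of 1.69 and 1.42. Their lists were mixed in T-low droplets. The Fc receptor Fcgr3 (-1.24, from 74 to 6 UMIs) and the transcription factor Nr1h3 (from 23 to 0 UMIs) were called lower there. Outside these lists, Lgals9 (-2.64, from 98 to 3 UMIs) and Vsir (from 21 to 0 UMIs) were also called lower in T-low droplets. Cxcl16, the ligand of Cxcr6 on T cells, went from 1 to 5 UMIs and from 1 to 22. Ccl8 had 0 UMIs in both classes at day +7 and 16 in each at day +14, but 12 of the 16 T-low UMIs lay in 1 droplet. Spp1, which encodes osteopontin, went from 0 to 72 UMIs in T-bearing droplets, 52 of them in 1 droplet, and the elastase Mmp12 from 0 to 54, all in 1 droplet, while both had at most 1 UMI in T-low droplets.

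**Figure D5:**
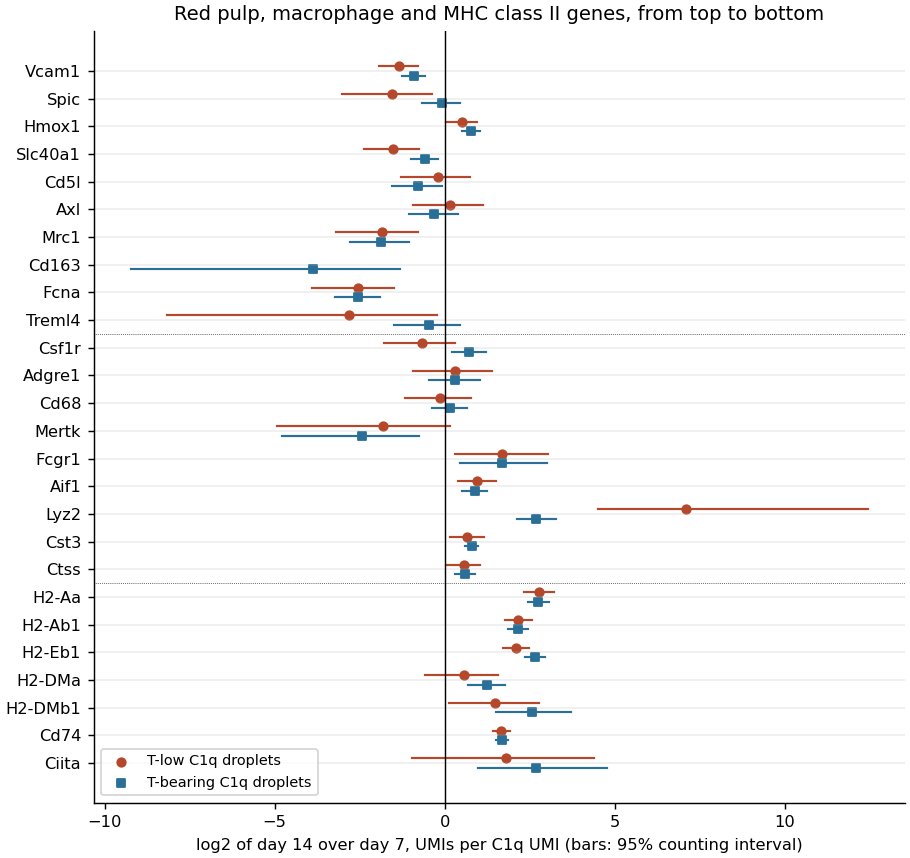
Log2 of day 14 over day 7, in UMIs per C1q UMI, for red pulp, macrophage and MHC class II genes from top to bottom in T-low (red) and T-bearing droplets (blue), where bars are 95% counting intervals. H2-Aa, H2-Ab1, H2-Eb1 and Cd74 lie right of 0 and Vcam1, Mrc1 and Fcna left of 0 in both classes, and T-low Cd163, with 0 UMIs at day 14, has no point.

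The oxidative pentose phosphate pathway, the subject of the study, gave few UMIs in these droplets. Pgd, which encodes its enzyme 6-phosphogluconate dehydrogenase, had 16 UMIs in T-low droplets at day +7 and 5 at day +14, at 87.8 against 42.7 CPM in T cells and 143 against 53.0 CPM. G6pdx, the first enzyme of the pathway, had 12 and 0 UMIs, and Pgls had 33 and 6. None of the oxidative genes tested was called against T cells, at the 4-fold limit in T-low or the 2-fold limit in T-bearing droplets, or between the days. Smaller differences, such as that of Pgd in T-low droplets at day +7, are not called by this rule. At these counts a difference in Pgd was not detectable in T-low droplets at day +14, where the counting interval of its log2 ratio ran from -0.19 to 2.65.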

How the data were processed

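The deposited files hold whole-number UMI counts per gene and barcode for 1 library per day, which the authors made with Cell Ranger 6.1.2 on mm10, per the submitters' processing notes. Barcodes with 500 to 7500 genes and at most 15% mitochondrial UMIs were kept. UMIs were summed over the droplets of a class and given per 1000000 UMIs (CPM), with 1 CPM added before log2. Genes under a mean of 10 CPM were not tested. Intervals of 95% are exact (Clopper-Pearson for shares, Poisson for counts, conditional binomial for ratios). A group at 0 was set to 3 UMIs for a bound. Python 3.11.15, scipy 1.17.1 and scanpy 1.11.5 (Scrublet) were used, and the procedures were tested on simulated data. Named genes were the 3 markers, the 4 most abundant genes of each list and its called genes, the 8 highest and 8 lowest ratios of a comparison at 50 CPM and 20 UMIs, and the oxidative pentose phosphate genes. Sex-linked genes were left out. The members and the lists were chosen with earlier results of these data known. The feature-barcode fraction was not used here. Of the macrophage list, 1 gene is not reported here by name.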

Additional observations from a re-analysis of the deposited data

Results flagged for a closer look

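Barcodes outside the limits also carried C1q. At least 5 C1q UMIs were found in 17 of the 176 barcodes left out at day +7 (9.66%, 5.73% to 15.01%) and in 20 of 249 at day +14 (8.03%, 4.98% to 12.1%). All of them had under 500 genes and at most 5 T receptor UMIs. Their depths were 505, 627 and 900 UMIs at day +7 (lowest, median and highest) and 502, 692 and 1011 at day +14, and 16 of 17 and 18 of 20 held 0 Malat1 UMIs. They thus extend the T-low droplets to lower depth, and no comparison used them.

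Haemoglobin genes went opposite ways between the days in the classes, and the difference was not tested. Day +14 over day +7, Hba-a1 had log2 ratios of 3.43 in T-low and -2.56 in T-bearing droplets, Hbb-bs of 3.71 and -2.11, and Hbb-bt of 2.35 and -2.36. Of the 319 Hbb-bs UMIs of T-bearing droplets at day +7, 312 lay in 1 droplet, and among T-bearing droplets with fewer than 10 erythroid UMIs the Hbb-bs ratio was 2.78. T-low droplets held 11 Hbb-bs UMIs at day +7 and 28 at day +14. Among those with fewer than 10 erythroid UMIs only 1 and 2 remained, so the T-low ratio rests on a few erythroid-bearing droplets.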

How the results depend on the processing

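With 1 library per day, no replicate could be left out. No paired analysis was possible because each group is 1 library. Of the main values under their alternatives, 79 stayed within the limits set and 34 moved. Requiring 3 or 10 C1q UMIs in place of 5 gave member shares of 2.48% and 0.933% at day +7 and 1.72% and 0.385% at day +14. The T-bearing share at day +7 was 81.5% and 59.7% at those limits, 82.2% at a mitochondrial limit of 5% and 63.6% with no limits. At day +14 it was 66.7% at 10 C1q UMIs and 61.1% with no limits. After thinning to 4000 UMIs, which left out barcodes of lower depth, it was 85.4% (82 of 96) and 98.1% (52 of 53). T-low droplets, with median depths of 3552 and 1324 UMIs, were mostly left out there. Genes called between T-low droplets and T cells numbered 1405 at day +7, and 796 with 10 CPM added, 448 at 50 CPM or more, 2263 with fewer than 10 erythroid UMIs and 2270 without Malat1. At day +14 they numbered 2665, and 1425 with 10 CPM added, 508 at 50 CPM or more and 824 with the interval. Between T-bearing and T-low droplets 2973 became 857 at 50 CPM or more and 1976 with the interval at day +7, and 4033 became 1193 and 718 at day +14. Between T-bearing droplets and T cells 168 became 26 at 50 CPM or more, 449 at 10 C1q UMIs and 253 with at most 5 S100a8 and S100a9 UMIs at day +7. At day +14, 200 became 394 by the mean of droplets, 120 with 10 CPM added, 36 at 50 CPM or more and 707 at 10 C1q UMIs. Between days 292 became 462 in T-low droplets without Malat1, and 689 in T-bearing droplets became 272 with 10 CPM added, 127 at 50 CPM or more and 1656 per C1q UMI. Signs turned for Lyz2 in T-bearing against T-low droplets at day +7 by the mean of droplets (-0.73), for the chemokine median at day +14 in that comparison at 10 C1q UMIs (0.13) and against T cells at 50 CPM or more (-0.23), for the other T lineage median between days in T-low droplets without the droplet of most C1q UMIs (1.35, from 1 gene), and for Hbb-bs in T-bearing droplets without erythroid-bearing droplets (2.78). Beyond the smaller sets of genes or droplets, the cause was not tested. The day +14 T-low droplets, with 35011 UMIs in all, limit what can be seen, since 3 UMIs there are worth 85.7 CPM.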
